A study of Homo sapiens with 6 samples.

Results

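The genes described here encode the SR proteins and the heterogeneous nuclear ribonucleoproteins (hnRNPs), measured in MDA-MB-231 cells after knockdown of *RBMS3*. Members were chosen by symbol: all *SRSF* and *HNRNP* genes, *TRA2A*, *TRA2B*, *PTBP1*, *PTBP2*, *PTBP3*, *SRRM1* and *SRRM2*, without pseudogenes. This rule found 39 of the 15917 genes in the table of the comparison, with 11 *SRSF* genes, 2 *TRA2* genes, 2 *SRRM* genes, 21 *HNRNP* genes and 3 *PTBP* genes. Of the 39 genes, 3 passed an adjusted p under 0.05 in the comparison of knockdown with control cells. *HNRNPL* and *HNRNPF* rose, by 1.61-fold and 1.38-fold, and *SRSF10* fell to 68.3% of its control level. The share called was 7.69%, next to 6.19% of all listed genes, so the number of calls was close to that of the table at large.

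SR proteins carry RNA recognition motifs and a domain rich in arginine and serine. They bind exonic enhancers in pre-mRNA and help to recruit the spliceosome, and their phosphorylation by SRPK and CLK kinases controls where they are in the nucleus. The hnRNPs coat nascent transcripts, and many of them repress exons, often against SR proteins on the same pre-mRNA. Members of both groups also act in export, stability and translation of mRNA, and many limit their own level through alternative splicing into transcripts that are degraded by nonsense-mediated decay (NMD).

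MDA-MB-231 is an established line of human breast cancer cells. Total RNA was sequenced from 6 libraries: 2 of control cells (shCTRL, genotype WT), 2 of cells with the hairpin shRBMS3-B3 (genotype RBMS3 KD1) and 2 of cells with the hairpin shRBMS3-C3 (genotype RBMS3 KD2). All cells carried a lentiviral short hairpin of the pLKO.1-Puro plasmid, the controls a hairpin without *RBMS3* as its target. RBMS3 is an RNA binding protein, and the study asked how its loss changes the levels of mRNAs, in particular those with an AUA element in the 3′ untranslated region (3′UTR). The knockdown is partial, and protein levels were not analysed here.

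The values are those of a deposited comparison with 1 row per gene, which holds no value of a single library. Depth is therefore unknown, overlap between groups cannot be described, and the spread between libraries is seen only through the standard error (SE) of each log2 fold change, given throughout as knockdown over control. The comparison is described as one of 2 knockdown with 2 control replicates, but which hairpin those knockdown cells carried is not given in the sources used here. *RBMS3* itself had a log2 fold change of -2.37 (SE 0.28, adjusted p = 6.18e-14), 19.3% of the control level with a 95% interval from 13.2% to 28.4%. Of the markers of this mesenchymal line, *VIM* and *CD44* stood at the 99.9th and 98.5th percentile of mean normalised count and *ZEB1* was listed, while *SPARC* was not. *ESR1*, *PGR*, *PTPRC* and *COL3A1* were also not listed, and *CDH1* was at the 3.64th percentile, with *EPCAM* and *PECAM1* at mean normalised counts of 107 and 69.0. *ERBB2*, often low in this line, had a mean normalised count of 1557, at the 83.4th percentile. It was itself called higher in knockdown cells, with a log2 fold change of 0.66 (SE 0.20, adjusted p = 0.0302). The table lists no gene with a mean normalised count under 26.7.

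The 3 genes that passed the test are shown first with their AUA motif sites, because the motif is the sequence through which the study linked transcripts to RBMS3. The motif of 7 bases is any base but C, then A or T, then ATA, then A or T, then A, and it was searched on the transcript strand of the 3′UTR of 1 representative transcript per gene, counting overlapping matches. It partly overlaps the polyadenylation signal AATAAA. Sites are printed 5′ to 3′ as DNA with the motif in capitals and up to 11 bases on each side, from GENCODE release 44 on GRCh38, and all lie in 3′UTR exons on the minus strand. For *SRSF10* the first site and others spread along the 3′UTR are shown. Of those shown only site 2 holds AATAAA, although 12 of all 21 sites of *SRSF10* do, so the choice does not reflect that share. A match is a description of the sequence and not evidence of binding.
*HNRNPL*, the only site, chr19:38836384-38836412: aattgtttggaAAATAAAcacagcacttg
*HNRNPF*, site 1, chr10:43386024-43386052: tttttttcttaAAATAAAgactttttcac
*HNRNPF*, site 2, chr10:43385863-43385891: atgatgaggctAAATAAAagtctaataaa
*HNRNPF*, site 3, chr10:43385852-43385880: aaataaaagtcTAATAAAaatgttaaata
*HNRNPF*, site 4, chr10:43385624-43385652: gtttctagtttTTATAAAatgctgattta
*SRSF10*, site 1, chr1:23971122-23971141: taGTATAAAccatggtcatt
*SRSF10*, site 2, chr1:23970809-23970837: tgtctcattaaAAATAAActttcatattc
*SRSF10*, site 5, chr1:23968728-23968756: tgctctccctcTTATAAAcaagacgcatt
*SRSF10*, site 9, chr1:23967268-23967296: ggtatggtccaATATAAAagttccatttt
*SRSF10*, site 18, chr1:23965762-23965790: taggtaaatacATATATAactacaataac

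The 3 genes differ in the number of motif sites and in the length of the 3′UTR, and a longer 3′UTR has more room for sites. *SRSF10*, the gene that fell, has 21 sites in a 3′UTR of 6795 bases, and 12 of these hold AATAAA. *HNRNPF* has 4 sites in 1019 bases, the last of them 17 bases from the annotated end. *HNRNPL* has 1 site in 352 bases, at base 321 after the stop codon and 25 bases from the end, and it holds AATAAA. The A+U content of the 3 3′UTRs is nearly the same, at 65.5% for *SRSF10*, 67.5% for *HNRNPF* and 65.1% for *HNRNPL*.

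*HNRNPL* encodes hnRNP L, which binds CA-rich RNA and regulates alternative exons. The gene (ENSG00000104824) lies at chr19:38836370-38852347 on the minus strand and had a mean normalised count of 6541. Its log2 fold change was 0.68 (SE 0.18), with a 95% interval from 0.33 to 1.04 and an adjusted p of 0.00738. As a ratio this is 1.61-fold higher in knockdown cells, with an interval from 1.26 to 2.05. This was the largest rise among the 39 genes, and its fold change stood at the 92.8th percentile of all listed genes. Of the 31-base words of its representative transcript, 45.6% also occur in transcripts of other genes, 27.9% in the pseudogene *HNRNPLP2*, so reads of *HNRNPL* could have been divided among copies. A protein-coding gene without a symbol that overlaps it on the same strand, ENSG00000268083, had a log2 fold change of 0.39 (SE 0.25).

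*HNRNPF* encodes hnRNP F, which binds runs of G together with the closely related hnRNP H proteins. The gene (ENSG00000169813) lies at chr10:43385617-43409186 on the minus strand and had a mean normalised count of 8189. Its log2 fold change of 0.47 (SE 0.15) had a 95% interval from 0.16 to 0.77 and an adjusted p of 0.0439. The rise was 1.38-fold, with an interval from 1.12 to 1.70. Its SE was at the low end of the range over the 39 genes (0.15 to 0.41), and 0.551% of its 31-base words are shared with other genes.

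*SRSF10* encodes an SR protein that acts as a splicing repressor when it loses its phosphates, as in heat shock. The gene (ENSG00000188529) lies at chr1:23964347-23980927 on the minus strand and had a mean normalised count of 2698. Its log2 fold change was -0.55 (SE 0.18), with a 95% interval from -0.90 to -0.20 and an adjusted p of 0.0396. The level was 1.46-fold lower in knockdown cells, with an interval from 1.15 to 1.87. Of its 31-base words, 6.33% are shared with other genes, spread over 2650 of them. *PNRC2*, the nearest listed gene on one side and on the opposite strand, had a log2 fold change of -0.55 (SE 0.22). *IFNLR1*, the nearest listed gene on the other side, had one of 0.44 (SE 0.30). Genes that are not listed may lie between.

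Counted by direction, the 2 genes called higher are 2 of 39 next to 3.71% of all listed genes called higher, and the gene called lower is 1 of 39 next to 2.49%. Since splicing factors are abundant, the protein-coding genes in the upper quintile of mean normalised count are a closer background. Of these 2482 genes, 8.02% were called, 5.68% higher and 2.34% lower. At an unadjusted p under 0.05, 8 of the 39 genes passed (20.5%), which is no more than the 21.2% of all listed genes or the 24.5% of the upper quintile. The 8 comprised the 2 higher genes and 6 lower ones.

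The genes just outside the threshold were all lower. *HNRNPR*, an hnRNP close in sequence to SYNCRIP, had a log2 fold change of -0.52 (SE 0.18, adjusted p = 0.0543). *SRSF11* had the most negative log2 fold change of the 39, at -0.64 (SE 0.24, adjusted p = 0.0800), with a 95% interval from -1.11 to -0.17. *TRA2A* followed at -0.44 (SE 0.18, adjusted p = 0.110). These genes thus lay on the same side as *SRSF10* but did not pass, with changes of similar size and mostly similar error. *HNRNPH1* (-0.47, SE 0.22, adjusted p = 0.178) and *HNRNPA2B1* (-0.36, SE 0.17, adjusted p = 0.183) were further from it. *HNRNPR* carries 26 motif sites in its 3′UTR of 5766 bases, the most of any of the 39 genes, and *SRSF11* carries 10 in 2247 bases. After *HNRNPR* and *SRSF10*, the largest counts were those of *HNRNPA0* (18), *PTBP3* (18) and *HNRNPA3* (15). Their log2 fold changes were 0.08, -0.32 and -0.01, and a link of site number with fold change was not tested. Examples, on the minus strand for *HNRNPR* and on the plus strand for *SRSF11*, show that the motif of both genes takes forms with and without AATAAA.
*HNRNPR*, site 2, chr1:23310058-23310086: gagtatgctgtAAATAAAaatacaagcta
*HNRNPR*, site 10, chr1:23307960-23307988: aacagtgtaatATATAAAcctgaaaaatg
*SRSF11*, site 1, chr1:70250905-70250933: acagctctgagTTATAAAtggttataaag
*SRSF11*, site 10, chr1:70253015-70253043: aattgatttaaAAATAAAagtggtttttg

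**Figure D1:**
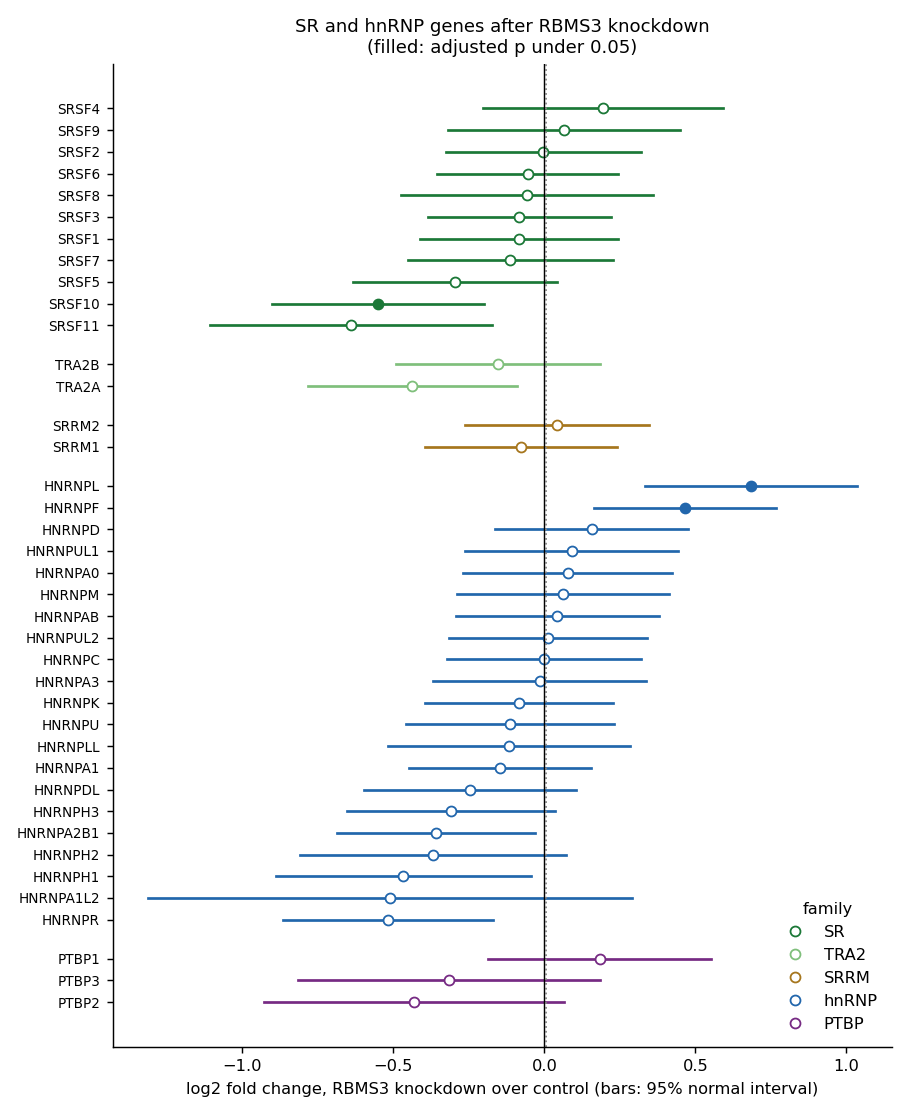
Log2 fold change of knockdown over control (horizontal axis) for each of the 39 genes, grouped and coloured by family, with 95% intervals as bars, filled points for called genes, a solid line at 0 and a dotted line at the median of all listed genes. *HNRNPL* and *HNRNPF* are filled on the right and *SRSF10* on the left, and 24 of the 39 points lie within 0.2 of 0.

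For the majority of the family the fold changes were small. The log2 fold change was within 0.2 of 0 for 24 of the 39 genes (61.5%), next to 36.0% of all listed genes and 50.2% of the upper quintile. Their median SE was 0.18, and a gene needed a log2 fold change of 0.45 to 1.21, with a median of 0.52, to be called. Changes smaller than that were thus not detectable as single calls here. The median log2 fold change was -0.08, with quartiles of -0.31 and 0.04, next to 0.00 for all listed genes and 0.05 for the upper quintile. Negative values were found for 27 of the 39 genes (69.2%), next to 49.6% of all genes and 42.9% of the upper quintile. The 3′UTRs of 34 of the 39 genes hold at least 60% A+U, a cut that was not part of the design. In the upper quintile 845 genes do, of which 72.9% had negative values, with a median of -0.17. These shares are descriptions over genes of 1 comparison, and genes are not replicates.

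Among the SR genes, 9 of 11 log2 fold changes were negative, the median was -0.08 and *SRSF10* was the only call. *SRSF1*, the founding member of the family and a known proto-oncogene, had a log2 fold change of -0.09 (SE 0.17), with a 95% interval from -0.41 to 0.24. *SRSF2*, long used as a marker of nuclear speckles under the name SC35, had -0.00 (SE 0.16). *SRSF3*, the smallest SR protein, had -0.08 (SE 0.15). These SR genes therefore lay close to 0. The lower bounds of their intervals, -0.41, -0.33 and -0.39, fell inside the *SRSF10* interval of -0.90 to -0.20. The intervals thus overlap, and a difference from *SRSF10* was not tested. *SRSF6* had a log2 fold change of -0.06 (SE 0.15) and *SRSF4*, its close relative, one of 0.19 (SE 0.20). *SRSF5* had -0.30 (SE 0.17), the next most negative value after *SRSF11* and *SRSF10*. *SRSF7*, whose protein has a zinc knuckle, had -0.11 (SE 0.17). Both *SRSF8*, a rarely studied relative of *SRSF2*, at -0.06 (SE 0.21), and *SRSF9*, at 0.07 (SE 0.20), also differed from 0 by less than their SE. The 2 SR genes with the clearest negative values, *SRSF10* and *SRSF11*, are those that are often set apart from the canonical SR proteins, *SRSF10* by its repressor activity.

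The 4 *TRA2* and *SRRM* genes held no call. *TRA2A* and *TRA2B* bind GAA-rich exonic enhancers. *TRA2A* is given above, and *TRA2B* had a log2 fold change of -0.15 (SE 0.17). The difference between the paralogs was -0.29, with an SE of 0.25 if the estimates were independent. *SRRM1*, a splicing coactivator of the nuclear matrix, had -0.08 (SE 0.16), and *SRRM2*, a scaffold of nuclear speckles, had 0.04 (SE 0.16). *SRRM2* had the largest mean normalised count of the 39 genes, 19513, and a 95% interval from -0.26 to 0.35.

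The 21 *HNRNP* genes had a median log2 fold change of -0.08, with 13 negative values, and both calls in this family were rises. In the A and B group, formed here by symbol, *HNRNPA1*, whose protein silences exons by binding UAG-like elements, had a log2 fold change of -0.15 (SE 0.15). *HNRNPA2B1* is given above, *HNRNPA3* had -0.01 (SE 0.18) and *HNRNPA0* 0.08 (SE 0.18). *HNRNPAB* had 0.04 (SE 0.17). The group therefore held no call, and *HNRNPA2B1* was its only gene at an unadjusted p under 0.05. *HNRNPA1L2*, a copy of *HNRNPA1* without introns, had -0.51 (SE 0.41) at a mean normalised count of 75.7, and all of its 31-base words (100%) occur in other genes, so its value is uncertain. *HNRNPC*, which binds runs of U, had -0.00 (SE 0.16). *HNRNPD*, known as AUF1 for its binding to AU-rich elements in 3′UTRs, had 0.16 (SE 0.16) and its relative *HNRNPDL* had -0.25 (SE 0.18). Neither of these passed the test.

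The H and F group was split in direction. *HNRNPF* rose, whereas *HNRNPH1*, *HNRNPH2* and *HNRNPH3* had negative values. *HNRNPH2* had a log2 fold change of -0.37 (SE 0.22) and *HNRNPH3* one of -0.31 (SE 0.18), and none of the 3 *HNRNPH* genes passed the test. *HNRNPF* minus *HNRNPH1* was 0.93 on the log2 scale, with an SE of 0.26 if the estimates were independent. Of the words of *HNRNPH1*, 8.20% are shared with other genes, most of them with a pseudogene. *HNRNPL* and its paralog *HNRNPLL*, known for splicing in activated T cells, formed a like pair, since *HNRNPLL* had -0.12 (SE 0.20) and the difference was 0.80 with an SE of 0.27. Both pairs were looked at after the calls were known, and these differences carry no test.

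Other hnRNPs were near 0. *HNRNPK*, which binds runs of C, had a log2 fold change of -0.08 (SE 0.16). *HNRNPM* had 0.06 (SE 0.18). *HNRNPU*, also called scaffold attachment factor A for its binding to chromatin, had -0.11 (SE 0.18). Its relatives *HNRNPUL1* and *HNRNPUL2* had 0.09 (SE 0.18) and 0.01 (SE 0.17). Copies limit these values in places, as 31.5% of the words of *HNRNPK* are shared with other genes and 45.5% of those of *HNRNPUL2* with the readthrough gene *HNRNPUL2-BSCL2*. The same limit holds for genes given above. The shares were 39.5% for *SRRM1*, 35.1% for *HNRNPA1*, 31.4% for *SRSF1* and 25.55% for *HNRNPC*. They were 19.4% for *HNRNPH2*, 19.1% for *SRSF6* and 18.9% for *HNRNPA3*. The *PTBP* genes encode polypyrimidine tract binding proteins, of which *PTBP1* represses neuronal exons in many cells and *PTBP2* takes its place in neurons. *PTBP1* had 0.18 (SE 0.19), *PTBP2* had -0.43 (SE 0.25) and *PTBP3* had -0.32 (SE 0.26). No *PTBP* gene passed the test, and *PTBP1* minus *PTBP2* was 0.61 with an SE of 0.32 if independent.

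The levels of these genes spanned a wide range. Per kilobase of representative transcript, mean normalised counts ran from 56.4 for *HNRNPA1L2* to 4653 for *HNRNPK*. *HNRNPK*, *HNRNPA1* (4539) and *HNRNPA2B1* (4391) led the order of levels per kilobase. These are means over the libraries of the comparison, without an error, so neighbours in this order cannot be told apart. *PTBP1* stood at 3210 per kilobase, *HNRNPF* at 3188 and *HNRNPL* at 3054, in ranks 7, 8 and 9 of 39. Most SR genes were lower, and *SRSF9* had the largest value among them, 2251 per kilobase. *SRSF10* stood at 352 per kilobase, rank 33, for a representative transcript of 7656 bases. Per kilobase, the 2 rises were thus in abundant transcripts and the fall in a less abundant one. This order depends on the transcript chosen. By mean normalised count alone, *SRSF10* stood at the 91.3rd percentile of all listed genes, next to the 97.3rd for *HNRNPL* and the 97.9th for *HNRNPF*. *PTBP2*, at 106 per kilobase, was far below *PTBP1*.

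**Figure D2:**
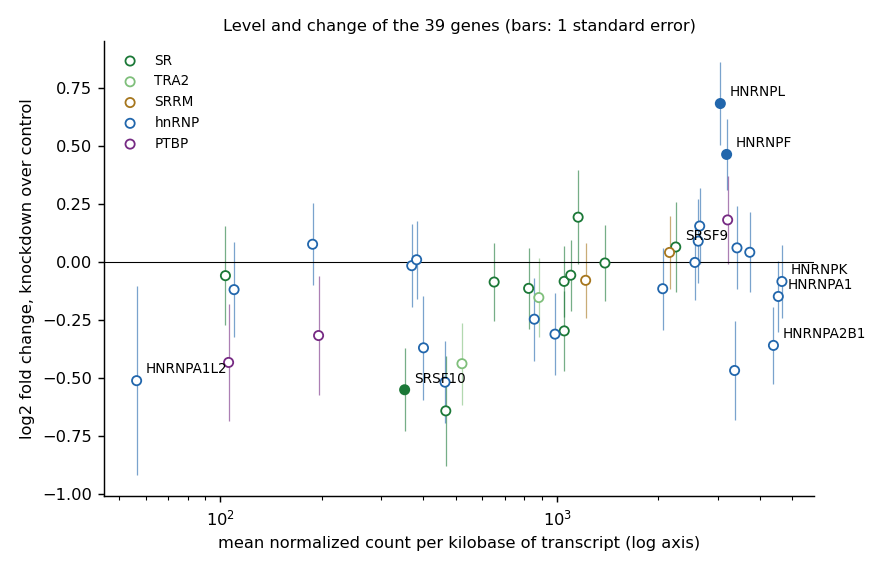
Mean normalised count per kilobase of transcript on a log axis against log2 fold change of knockdown over control for the 39 genes, coloured by family, with bars of 1 SE and filled points for called genes. *HNRNPL* (3054) and *HNRNPF* (3188) are at the right above 0, and *SRSF10* (352) is further left below 0.

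The 3′UTRs of these genes were rich in A and U. Their median A+U content was 65.3% (45.8% to 70.6%), next to 57.9% for the 12350 genes with a 3′UTR of at least 7 bases and 55.1% for the upper quintile. The median length was 1644 bases against 1378. The AUA motif occurred in 38 of the 39 genes (97.4%), next to 84.8% of all 3′UTRs and 83.7% of those of the upper quintile, and *HNRNPA1L2* was the exception. The motif was found at 272 sites in all, of which 109 hold AATAAA. At least 3 sites were present in 28 genes (71.8%), next to 53.1% of all genes, and the median number per kilobase was 2.89 against 2.43. Since nearly all members hold the motif, its presence does not divide those that rose from those that fell.

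A+U content and log2 fold change went in opposite directions over the table, and the 39 genes followed in part. Pearson's r was -0.33 and Spearman's rho -0.42 over the 39 genes, next to -0.38 and -0.49 over all genes with a 3′UTR and -0.52 and -0.56 over the upper quintile. These correlations are across genes that share the same libraries and are given without a test. In the SR family r was -0.57 (11 genes) and in the *HNRNP* family -0.14 (21 genes). Of the 34 genes with at least 60% A+U, 27 had a negative log2 fold change (79.4%), with a median of -0.11, next to 74.2% and -0.24 for all 5310 genes in that range. The 5 genes below 60%, *PTBP1*, *SRRM2*, *HNRNPUL1*, *HNRNPUL2* and *HNRNPAB*, all had values above 0, and none passed the test. Their median was 0.04, next to 0.14 for all 7040 such genes. Each of the 5 values was smaller than its SE, so their signs are uncertain. The 60% cut was not part of the design. *HNRNPL* and *HNRNPF*, which rose, departed from the trend over the table. In the upper quintile, 845 genes had at least 60% A+U, of which 50 were called lower and 10 higher, and *HNRNPL* and *HNRNPF* were 2 of the 10.

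**Figure D3:**
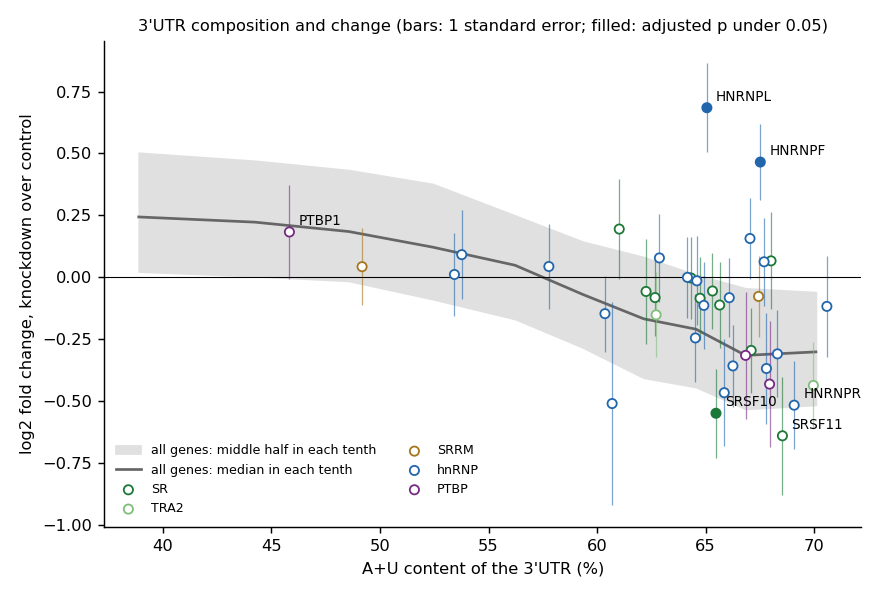
A+U content of the 3′UTR in percent against log2 fold change of knockdown over control for the 39 genes, with bars of 1 SE and filled points for called genes, over a grey line and band with the median and interquartile range of all genes in equal-sized bins of A+U content. The 34 genes with at least 60% A+U have a median of -0.11, and the called *HNRNPL* (65.1%) and *HNRNPF* (67.5%) lie above the band.

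Annotated transcripts of these genes often end in forms subject to NMD. In GENCODE, 31 of the 39 genes (79.5%) had at least 1 transcript of the NMD class, next to 48.2% of all genes with a 3′UTR and 52.5% of the upper quintile. All 11 SR genes were among them. *HNRNPA2B1* had 35 such transcripts of 49 annotated and *HNRNPA1* had 18 of 84, and *HNRNPH1* had 19 of 49 with a retained intron. A gene with more annotated transcripts has more room for both kinds, and the shares were not adjusted for this. *HNRNPF* had none of either kind, *HNRNPL* had 1 NMD transcript and 7 with a retained intron, and *SRSF10* had 2 of each. The table gives 1 value per gene, so shifts between coding and NMD transcripts could not be measured, and a gene value near 0 does not speak to them.

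Of 12 enzymes and carriers that act on these proteins, 11 were listed and 2 were called, in opposite directions. This is 18.2%, next to 6.19% of all listed genes and 8.02% of the upper quintile. This list and those below were chosen with earlier results of these data known. *TNPO1*, the importin that carries hnRNP A1 and related proteins into the nucleus, fell by 0.89 on the log2 scale (SE 0.18, adjusted p = 0.000129), which is 1.85-fold lower. *TNPO3*, the importin of phosphorylated SR proteins, rose by 0.58 (SE 0.16, adjusted p = 0.0146), which is 1.49-fold higher. *TNPO2*, the paralog of *TNPO1* and the gene of the list with the largest mean normalised count, had a log2 fold change of 0.34 (SE 0.18) and did not pass. No SRPK or CLK kinase passed, and the list median was -0.06. The *TNPO1* change was larger than that of any of the 39 genes.

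Of 14 hnRNP-class genes under other symbols, all listed, 2 passed (14.3%, next to 6.19% of all listed genes and 8.02% of the upper quintile). *CIRBP*, the cold-inducible RNA binding protein, rose by 0.60 on the log2 scale (SE 0.18, adjusted p = 0.0208). *MATR3*, a nuclear matrix protein that binds RNA, fell by 0.74 (SE 0.22, adjusted p = 0.0211). *PCBP2*, a poly(C) binding protein with the largest mean of them, had -0.03 (SE 0.17), and the list median was 0.07. Among 11 of 13 SR-related and U2AF genes, *RNPS1*, a component of the exon junction complex, was the only call (9.09%, next to the same 6.19% and 8.02%). It rose by 0.62 (SE 0.19, adjusted p = 0.0310). *SON*, a speckle protein with the largest mean, had -0.05 (SE 0.16) and the list median was 0.01. Of that list 7 of 11 genes (63.6%) had an unadjusted p under 0.05 in the deposited DESeq2-style test, 3 higher and 4 lower, next to 21.2% of all listed genes and 24.5% of the upper quintile.

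Other splicing regulators and the core machinery held no call. Of 18 other regulators 13 were listed, with a median of -0.20, and 4 (30.8%, next to 21.2% of all listed genes) had an unadjusted p under 0.05 in that test, 1 higher and 3 lower. *KHDRBS1*, also known as Sam68, had the largest mean of these and a log2 fold change of 0.03 (SE 0.17). All 27 core spliceosome genes were listed, 2 (7.41%) had an unadjusted p under 0.05 in the same test, both higher, and the median was 0.12 with 18 positive values. *PRPF8*, the large protein at the heart of the spliceosome, had the largest mean and a log2 fold change of -0.08 (SE 0.18). Next to the 6.19% called over all genes, neither list held a gene past the threshold, and the difference of their medians was not tested.

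**Figure D4:**
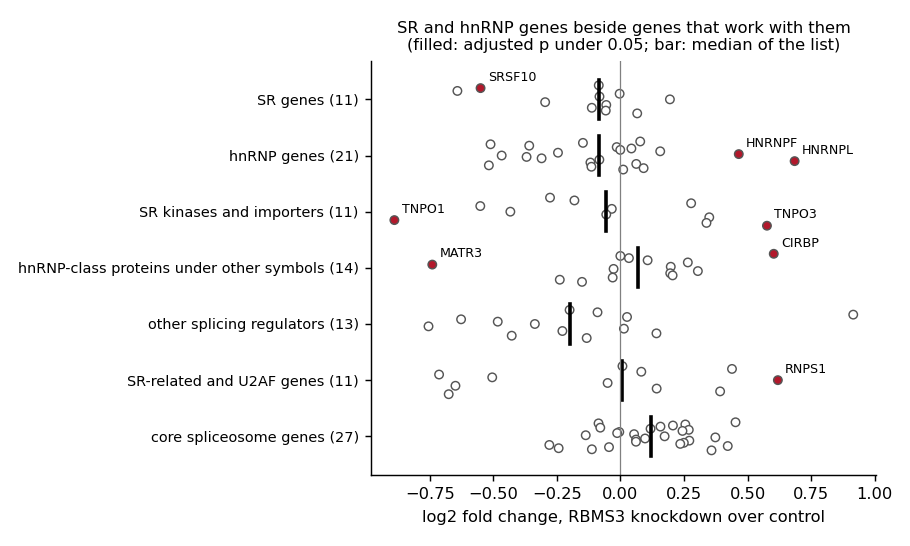
Log2 fold change of knockdown over control for each listed SR and *HNRNP* gene and each listed gene of 5 other lists, with filled points for called genes and a thick bar at the median of each list. The medians run from -0.20 for other splicing regulators to 0.12 for core spliceosome genes, and *TNPO1* at -0.89 is the lowest point.

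Some genes of these families lie outside the account. Of 45 protein-coding genes in GENCODE that match the rule, *HNRNPCL1*, *HNRNPCL2*, *HNRNPCL3*, *HNRNPCL4* and *SRSF12* were not listed. *HNRNPA1L3* was listed under the older name CTD-2119F7.2, with a log2 fold change of 0.35 (SE 0.26, adjusted p = 0.459), and is not counted. The 2 pseudogenes left out by the rule, *HNRNPA1P33* and *HNRNPA1P7*, had values of 0.13 (SE 0.43) and 0.05 (SE 0.41).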

How the data were processed

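Total RNA of MDA-MB-231 cells was converted to libraries by a stranded kit for small inputs with depletion of ribosomal cDNA. Salmon, DESeq2 and hg38 are named in the submitters' processing notes, without versions or roles. The only table is the authors' own comparison of knockdown with control cells, and all results rest on its columns. The authors deposited a log2 fold change with its standard error, a Wald score, a p-value with its adjusted value, and as signal a mean normalised count. No values per library were used, so the count test foreseen in the design was replaced by the deposited p-values of the authors' DESeq2-style model, and which hairpin or hairpins they rest on is not given in the sources used here.

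The 15917 listed p-values were adjusted again by the Benjamini-Hochberg method, and an adjusted p under 0.05 was a call. Intervals are 95% normal intervals. Annotation came from GENCODE release 44 on GRCh38, which held 15829 of the Ensembl identifiers. The upper quintile is that of mean normalised count among protein-coding genes. The representative transcript was MANE Select, then Ensembl canonical, then that with the longest coding sequence. Shared sequence was counted as 31-base words found in transcripts of other genes. The members and all gene lists were chosen with earlier results of these data known. All members are named, and of other lists the called genes and that with the largest mean. The functions were tested on simulated data. Python 3.11.15, numpy 2.4.6, pandas 2.3.3, SciPy 1.17.1, numba 0.67.0 and matplotlib 3.10.9 were used. Alternatives were the threshold, the set of genes adjusted over, the test statistic, the gene symbols and the 3′UTR chosen.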

Additional observations from a re-analysis of the deposited data

How the results depend on the processing

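Of 42 alternatives over 10 results, 28 were labelled the same, 11 moved, 3 ended a call and 0 were labelled reversed. The same meant a count within a set ratio, a median shifted by less than the median SE, or a call kept. The moved ones include the medians on the Wald scale. Most alternatives were counts or the same deposited fold change under another call rule. These could not reverse, so the 0 does not speak to the stability of directions. At an adjusted p under 0.01, 1 of the 39 genes was called, *HNRNPL*, with 1 higher and 0 lower, next to 2.18% of all listed genes, and *SRSF10* and *HNRNPF* were lost. At 0.1, 5 genes were called, 3 of them lower, *HNRNPR* and *SRSF11* being added, next to 1750 of all 15917 genes. An unadjusted p under 0.01 with a log2 fold change beyond 0.5 gave 1 higher and 3 lower, next to 10.2% of all, and lost *HNRNPF*. Adjustment over the 7958 genes above the median level gave 4 calls, 2 of them lower, adding *HNRNPR*, next to 10.3% of those genes. With the Wald statistic in place of the log2 fold change, a change of scale, the medians were -0.52 for the 39 genes, -0.51 for the SR genes and -0.52 for the *HNRNP* genes. Without genes that share at least 10% of their words with others, which was tried only after the data had been seen, the median log2 fold change of the 39 was -0.11.

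No paired analysis was possible because no values per library were used. For the same reason other normalizations, filters and count tests, each hairpin alone and each library left out were not run, so a single library or hairpin behind a call cannot be seen.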
